A study of Mus musculus with 3 samples.

Results

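The 10 amino acid transporter genes described here in CD4+ effector memory T cells are Slc7a5, Slc3a2, Slc1a5, Slc38a1, Slc38a2, Slc7a6, Slc7a1, Slc7a7, Slc43a2 and Slc6a6. They were chosen by symbol from the GENCODE M21 gene annotation and make up 10 of the 55536 genes in the deposited gene tables. All 10 were found, each under 1 gene identifier, in the gene and transcript tables of every library. The cells were primary helper T cells with an alpha-beta receptor from 1 male C57BL/6J mouse, aged 7 months, and no treatment or genetic change is given in the labels. PolyA RNA was sequenced in 3 libraries that the labels number as technical replicates 1, 2 and 3 of biological replicate 1, so the series has 1 group and no contrast between conditions. The questions that the data can answer are how high each gene stood, which annotated transcripts carried it, and how closely the 3 libraries matched. Values are in TPM, a level that divides counts by transcript length and scales each library to the same total, and every mean ± SD is over n = 3 libraries, so an SD here measures technical spread within 1 mouse.

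T cells that have met antigen need amino acids from outside the cell for protein synthesis and for signalling through the kinase complex mTORC1. Several of the carriers work as pairs: Slc3a2 encodes the heavy chain of CD98, a glycoprotein that is joined by a disulphide bond to a light chain and brings it to the plasma membrane, while the light chain does the transport. Others, such as Slc1a5, Slc38a1 and Slc38a2, encode sodium-dependent carriers of neutral amino acids, glutamine among them, that need no heavy chain.

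Gene counts summed to between 14152590 and 16251564 per library. All 7 T cell markers checked (Cd3e, Cd3d, Cd3g, Cd4, Trac, Trbc2 and Cd44) stood above 100 TPM, summing to 7682 to 8353 TPM per library. The 3 B cell markers summed to 0.73 to 0.86 TPM, the 4 monocyte and macrophage markers to 0.81 to 1.57 TPM and the 2 neutrophil markers to 0 to 0.38 TPM. These 3 cell types were thus represented at or near 0. The 2 natural killer cell markers summed to 13.5 to 21.7 TPM, nearly all of it Klrb1c, with Ncr1 at or below 0.16 TPM. Cd8b1, which encodes a CD8 chain, averaged 4.16 ± 0.887 TPM while Cd8a averaged 0.0433 ± 0.0153 TPM. Of the 3 stroma and epithelium markers, Epcam averaged 5.24 ± 0.883 TPM, and Hbb-bs, an erythroid marker, averaged 3.90 ± 2.57 TPM. The part of any such cells in the transporter levels was not tested. In bulk RNA, fewer cells that express a gene and less RNA of it per cell cannot be told apart.

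In TPM, a pair of the genes, Slc1a5 and Slc6a6, had more transcript abundance in forms annotated as not protein coding than in coding ones. By estimated counts this did not hold for Slc6a6, where coding forms held 72.8%. For each gene, 1 stretch of RNA that differs between a coding transcript and 1 such form is shown here. The first is intron 7 of the 8 introns of Slc1a5-201, the coding transcript of the glutamine carrier gene, at chr7:16795953-16796023 on the plus strand of GRCm38/mm10. It is kept inside an exon of Slc1a5-202, which is annotated as retained intron. The second is exon 9 of the 15 exons of Slc6a6-201, the full coding transcript of the taurine carrier gene, at chr6:91741178-91741302 on the plus strand. It is missing from Slc6a6-205, which is annotated as a target of nonsense-mediated decay, the pathway that degrades transcripts with an early stop codon. Slc6a6-205 held a mean of 32.4% of the gene's TPM, and 5 retained intron forms together held 32.7%. Sequences were read from the GENCODE M21 transcripts and run 5′ to 3′. Capitals mark the intron or exon, and the 15 bases in lower case on each side are the neighbouring exons.
Slc1a5-202 retained intron: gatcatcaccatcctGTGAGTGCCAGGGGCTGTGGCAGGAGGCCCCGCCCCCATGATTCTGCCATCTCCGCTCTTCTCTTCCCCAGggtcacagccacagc
Slc6a6-205 skipped exon: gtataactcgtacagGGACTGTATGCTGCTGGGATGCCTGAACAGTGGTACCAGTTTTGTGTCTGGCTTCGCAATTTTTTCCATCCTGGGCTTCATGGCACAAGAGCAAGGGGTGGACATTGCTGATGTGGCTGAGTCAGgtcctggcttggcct
The Slc1a5 intron is 71 bases long, 66.2% of them G or C, and begins with GT and ends with AG, the usual ends of an intron. The Slc6a6 exon is 125 bases long and 52.0% G or C. Neither length is a multiple of 3. In Slc6a6-205, 5 of the 6 exons, with 625 bases, come before the skip, and 145 bases are annotated as coding. The decay annotation was not traced to the skip, and where the early stop arises was not tested.

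The heavy chain gene Slc3a2 (chr19:8706882-8723369, minus strand) was the highest of the 10 in TPM. It had 407, 420 and 398 TPM, in the order of libraries 1, 2 and 3 used for every such trio, averaged 409 ± 11.0 TPM, and ranked 344 among 22028 protein-coding genes. Its 3 values all lay above those of every other gene of the group. On counts divided by the length of the longest coding transcript, Slc38a2 and Slc1a5 stood above Slc3a2. The light chain genes stood far lower. Slc7a5 (chr8:121881150-121907694, minus strand), which encodes LAT1, the carrier of leucine and other large neutral amino acids, had 27.6, 28.6 and 24.5 TPM. Slc7a6 (chr8:106168857-106198706, plus strand), which encodes y+LAT2, an exchanger of arginine and lysine for neutral amino acids, had 24.9, 26.1 and 30.1 TPM. Slc7a5 was higher in libraries 1 and 2 and Slc7a6 in library 3, so the ranges overlapped and no order between them was resolved. Their ranks among protein-coding genes were 5115 for Slc7a5 and 5102 for Slc7a6.

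Slc7a7 (chr14:54369442-54417780, minus strand), which encodes y+LAT1, a light chain of the same exchange type as y+LAT2, was close to the limit of detection. It had 1, 3 and 8 counts in libraries 1, 2 and 3, or 12 in all, for which the exact 95% Poisson interval is 6.20 to 20.96 counts, covering counting error only. In TPM these were 0.24, 0.25 and 1.17. The 3 libraries allow no order from so few counts, and 232 of its exon bases are shared with Oxa1l on the opposite strand, which had 30.3, 23.4 and 30.7 TPM. The strand setting of the counting is not given in the sources used here, so reads of Slc7a7 and Oxa1l over those bases cannot be told apart.

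The other light chain genes that pair with Slc3a2 were also low. Slc7a8, which encodes LAT2, averaged 0.283 ± 0.258 TPM, and Slc7a11, which encodes the cystine carrier xCT, averaged 0.440 ± 0.165 TPM. Slc7a10 had 8 counts, all in library 1. Slc7a5 and Slc7a6 therefore held nearly all of the light chain transcripts, at 48.6% ± 4.76 and 48.7% ± 3.65 of the summed TPM of the 6 light chain genes. Slc3a2 stood at 7.54, 7.59 and 7.00 times the summed light chains in libraries 1, 2 and 3, a mean of 7.38 ± 0.325. The sum of the light chains was 54.0, 55.4 and 56.9 TPM in the 3 libraries. The size of this ratio depended on the scale: on counts not divided by length it was 3.88 ± 0.0614. The deposited effective length, over which reads can start, was 1556, 1555 and 1538 bases for Slc3a2, against 3468, 3365 and 3468 bases for Slc7a5. Transcript levels of a heavy and a light chain do not give the number of paired proteins.

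**Figure D1:**
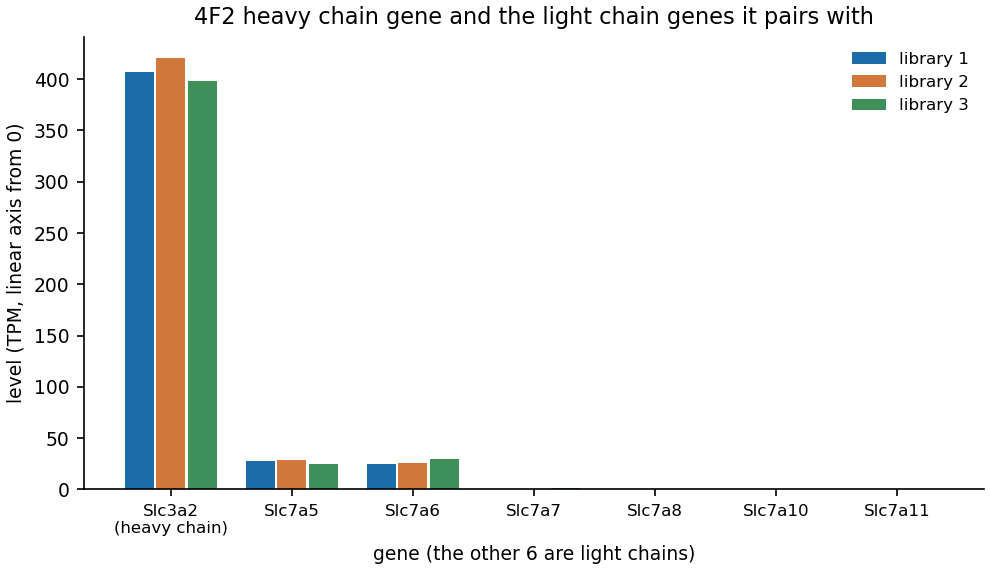
Level in TPM (linear axis from 0) of the heavy chain gene Slc3a2 and of the 6 light chain genes, with 1 bar per library. Slc3a2 stands at 398 to 420 TPM, Slc7a5 and Slc7a6 at 24.5 to 30.1 TPM, and the other light chain genes near 0.

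The sodium-coupled carriers of neutral amino acids came next to Slc3a2. Slc38a2 (chr15:96687392-96699730, minus strand), which encodes SNAT2 and is known as a gene that many cell types induce when amino acids run short, had 336, 354 and 327 TPM, and ranked 405. Slc1a5 (chr7:16781340-16798274, plus strand), which encodes ASCT2, an exchanger that takes up glutamine, had 263, 310 and 256 TPM, and ranked 512. Slc38a1 (chr15:96571418-96642913, minus strand), which encodes SNAT1 and is the next protein-coding gene to Slc38a2, had 151, 147 and 154 TPM, and ranked 1083. The 3 genes kept this order in every library without overlap. Slc38a2 stood at 2.22, 2.40 and 2.12 times Slc38a1, a mean of 2.25 ± 0.143. Library 2 was the highest of the 3 for Slc38a2 and Slc1a5 and the lowest for Slc38a1.

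The order of these 3 genes depended on the transcripts, lengths and table used. When the TPM of protein-coding transcripts alone was summed, Slc1a5 fell to 81.3 ± 8.08 TPM, against 276 ± 29.0 TPM over all its transcripts. Slc38a1 then stood at 93.7 ± 1.11 TPM, above Slc1a5 in each library, and Slc38a2 at 294 ± 17.3 TPM. This sum was added as an alternative after the transcript shares had been seen. The Slc38a2 to Slc38a1 ratio became 3.13 ± 0.198 on coding transcripts and 4.23 ± 0.215 on counts divided by the length of the longest coding transcript, which was also added after the data were seen. On the second deposited count table, divided by effective length, Slc1a5 stood above Slc38a2.

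The taurine carrier gene Slc6a6 (chr6:91684053-91759066, plus strand) had 58.0, 57.5 and 69.9 TPM and ranked 2755, so library 3 was high and the other two were alike. Slc7a1 (chr5:148327410-148399904, minus strand), which encodes CAT1, a carrier of arginine and lysine that needs no heavy chain, had 46.8, 39.6 and 50.2 TPM and ranked 3586, with library 2 the low one. Slc43a2 (chr11:75531694-75577575, plus strand), which encodes LAT4, a sodium-independent carrier of branched-chain amino acids, phenylalanine and methionine, had 8.08, 12.9 and 11.8 TPM and ranked 7381. Its library 1 value lay well under the other two. An antisense gene, Gm45606, shares 922 exon bases with Slc43a2 and had 2.77, 1.20 and 2.02 TPM, and Gm44981 on the minus strand shares 117 exon bases with Slc6a6 and had 0.27, 0 and 0.18 TPM.

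From high to low in TPM the order was Slc3a2, Slc38a2, Slc1a5, Slc38a1, Slc6a6, Slc7a1, Slc7a6, Slc7a5, Slc43a2 and Slc7a7. In 8 of the 9 pairs of neighbours the 3 values of the higher gene all lay above the 3 values of the lower. The exception was Slc7a6 and Slc7a5. The smallest step without overlap was that of Slc3a2 over Slc38a2, 1.21-fold on the means, and the widest was that of Slc43a2 over Slc7a7, 19.8-fold. At the level of the whole gene the posterior SD was at most 2.28% of the count for the 9 highest genes and reached 21% for Slc7a7. The 4 highest genes held 87.2% ± 1.22 of the summed TPM of all 10, which was 1348 ± 42.3 TPM.

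**Figure D2:**
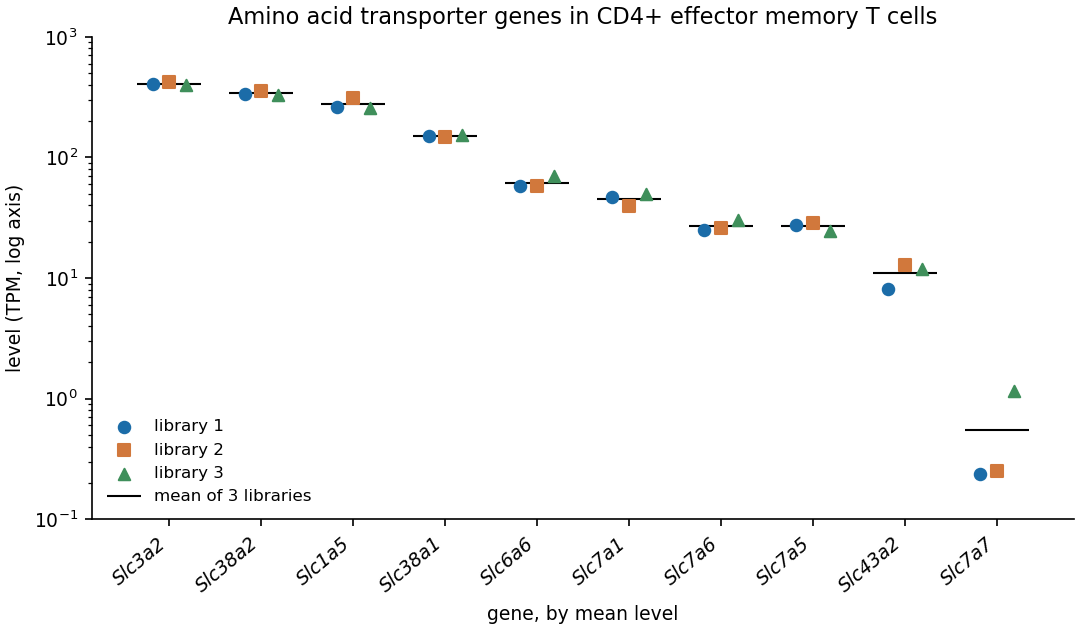
Level in TPM (log axis) of the 10 genes in each of the 3 libraries, with a line at the mean. Only the neighbours Slc7a6 and Slc7a5 overlap, and Slc7a7, with 12 counts in all, lies under 1.2 TPM in every library.

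In the annotation, the leading transcript of Slc3a2 was Slc3a2-201, which is protein coding and starts at chr19:8713879. It took 59.5%, 60.0% and 58.7% of the gene's TPM in libraries 1, 2 and 3. Slc3a2-207, a shorter coding transcript that starts at chr19:8712985, took 29.6%, 30.3% and 29.3%, and Slc3a2-209, annotated as retained intron, took 7.996%, 6.74% and 8.30%. The 3 shares moved by under 2 percentage points between libraries. Slc7a5 was carried by 1 coding transcript, Slc7a5-201, at 100%, 96.5% and 100%, and the retained intron form Slc7a5-202 took the remaining 3.54% in library 2, from 5.09 estimated counts. The third transcript, Slc7a5-203, had 0 counts.

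Slc1a5 was carried mainly by the retained intron form Slc1a5-202. It took 60.4%, 65.6% and 62.3% of the gene's TPM, against 32.4%, 27.97% and 28.1% for the coding form Slc1a5-201. Slc1a5-203, another retained intron form, took 4.48%, 1.34% and 3.60%. Slc1a5-202 stood above Slc1a5-201 in each library, at 159, 203 and 160 TPM against 85.3, 86.6 and 72.0 TPM. The 2 forms differ only by the 71-base intron printed above and by 28 bases at the 5′ end, so most reads fit both and were shared out by estimate. The deposited posterior SD of the Slc1a5-202 count was 215, 244 and 177 counts on estimates of 4358, 4960 and 3874 counts. That SD is well below the distance between the 2 estimates, but it covers only how shared reads were assigned. The reads over the intron were not analysed here, so the lead of Slc1a5-202 rests on the estimate.

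For Slc6a6 the scale decided which form led. The nonsense-mediated decay form Slc6a6-205 took 39.1%, 27.9% and 30.2% of the gene's TPM, from 155, 97.6 and 128 estimated counts. The coding form Slc6a6-201 took 20.4%, 25.2% and 24.9% of TPM, from 724, 785 and 938 estimated counts. Slc6a6-205 is annotated with 738 bases and Slc6a6-201 with 6186, so a count weighs more in TPM for the shorter one. Slc6a6-210, annotated as retained intron, took 11.4%, 19.8% and 19.8% of TPM. Coding transcripts held 35.0% ± 1.43 of the TPM of Slc6a6 and 72.8% ± 0.424 of its counts.

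The SNAT genes also held retained intron forms. Slc38a2-201, the coding form, took 86.5%, 88.3% and 85.2% of TPM, and Slc38a2-202, which keeps 5 of the 15 introns of Slc38a2-201, took 13.5%, 11.7% and 14.8%. Slc38a1 was spread over more forms: Slc38a1-203, coding, took 33.2%, 34.3% and 34.8%. Slc38a1-204, a single exon annotated as retained intron, took 31.1%, 27.4% and 30.2%, and Slc38a1-201, coding, took 15.7%, 15.7% and 13.5%. Coding transcripts together held 62.1% ± 1.31 of the TPM of Slc38a1. The forms Slc38a1-203 and Slc38a1-201 have annotated starts at different places, chr15:96641962 and chr15:96642913 on the minus strand.

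Slc7a6 was split between Slc7a6-201, coding, at 36.0%, 36.8% and 34.1%, and Slc7a6-207, annotated as retained intron, at 27.5%, 33.3% and 28.4%. Slc7a6-207 keeps 1 intron of 667 bases. Slc7a6-202, coding, took 13.2%, 23.0% and 12.4%, from 23.5, 38.1 and 23.6 estimated counts. The main form of Slc7a1 was Slc7a1-202, coding, at 64.3%, 76.5% and 61.2%, with Slc7a1-201, coding and 7179 bases long, at 12.1%, 9.98% and 10.4%. Slc7a1-206, coding, took 6.88%, 5.69% and 12.9%. Slc7a1-202 itself was level, with 30.1, 30.3 and 30.7 TPM. Slc7a1-201 had 5.66, 3.95 and 5.20 TPM and was lowest in library 2.

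The shares of Slc43a2 varied most among the genes above 1 TPM. Slc43a2-202, coding, took 38.5%, 32.7% and 19.4% of TPM, and Slc43a2-203, coding, took 15.7%, 2.32% and 27.1%, from 7.15, 1.51 and 15.9 estimated counts. Slc43a2-205, coding, took 16.3%, 14.1% and 14.1%. These shares rest on few counts per form and their posterior SD was 4.02 to 6.05 counts for Slc43a2-203. The transcripts of Slc7a7 could not be resolved: Slc7a7-204 held its only count in library 1, Slc7a7-202 and Slc7a7-207 shared the 3 counts of library 2, and other forms held most of the counts in library 3.

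Of the 9 genes above 10 TPM, 2 (22.2%), Slc1a5 and Slc6a6, had less than 50% of their TPM in protein-coding transcripts. The same held for 18.1% of 7103 protein-coding genes at 10 TPM or more with several transcripts. The leading transcript was not annotated as coding in the same 2 genes, against 14.6% of the 7103. The median share in coding transcripts was 77.2% for the 9 genes and 81.7% for all 7103. The 9 genes thus stood near the general level, and a share of this size was not particular to them. By estimated counts in place of TPM the leading transcript, by mean share, was not annotated as coding in Slc1a5 and in Slc38a1. For Slc38a1 this was close to a tie: the retained intron form Slc38a1-204 held 28.4%, 25.1% and 28.2% of counts, against 28.2%, 28.1% and 24.8% for the coding form Slc38a1-201, which led in library 2.

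**Figure D3:**
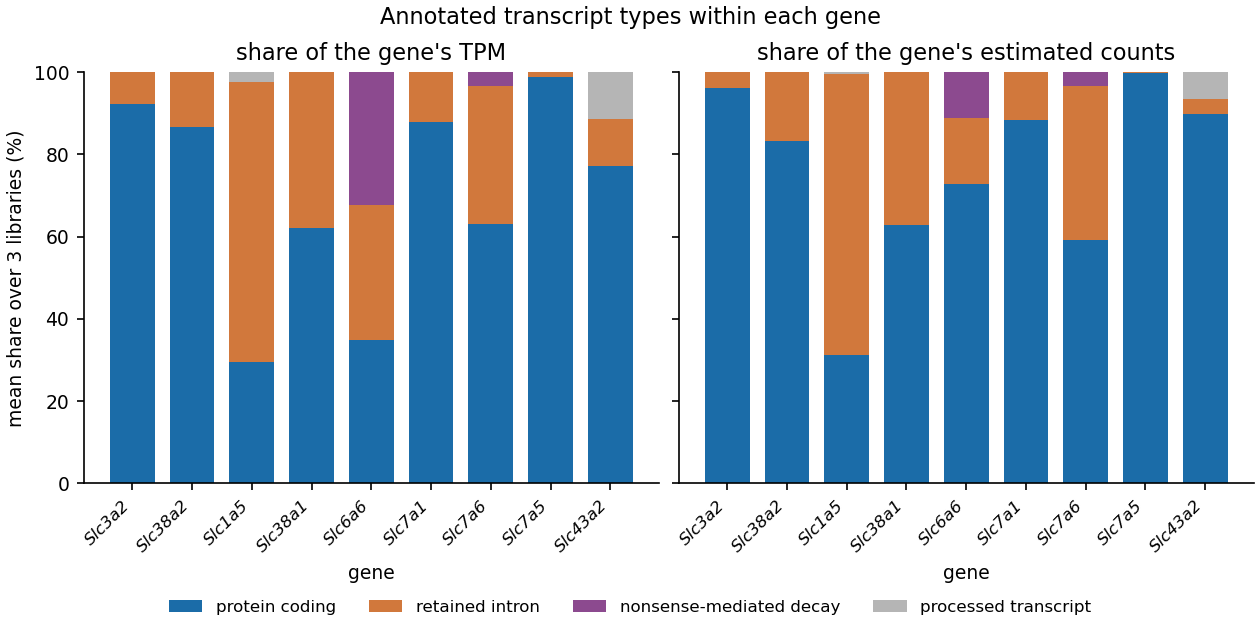
Mean share over 3 libraries of each annotated transcript type within a gene, by TPM (left) and by estimated counts (right), for the 9 genes above 10 TPM. Coding transcripts hold 29.5% of Slc1a5 TPM and 35.0% of Slc6a6 TPM, and 72.8% of Slc6a6 counts.

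RefSeq promoter windows on GRCm38.p6, from 250 bases before to 50 bases after a start, were matched by symbol for 6 of the 10 genes, 13 windows in all. Slc7a5, Slc1a5, Slc38a1 and Slc6a6 had no entry. The windows of Slc7a1, Slc7a6, Slc43a2, Slc7a7, Slc38a2 and Slc3a2 were scanned on both strands for TGATGNAA, the core of the C/EBP-ATF response element that ATF4 and its partners bind, and for CACGTG, the E-box bound by MYC and related factors. The first was found in 2 of the 13 windows, and in 3.97% of 32851 windows of all genes. Both windows are of Slc7a7 and overlap each other, so their 3 matches lie at 2 distinct sites, 1 of them in both windows. The second was found in 0 of the 13, against 7.15% of all windows. A match or its lack in a window is a description only.

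The 3 libraries were compared gene by gene with a chi-square test of homogeneity on rounded estimated counts, adjusted by the Benjamini-Hochberg method over 13949 genes. As computed, 57.2% of the genes tested differed between libraries beyond counting noise, and so did 6 of the 9 transporter genes tested. The 6 were Slc7a5, Slc3a2, Slc1a5, Slc38a2, Slc7a1 and Slc6a6, so the share among them was near that of all genes. Slc38a1, Slc7a6 and Slc43a2 missed the threshold, and Slc7a7 had too few counts to be tested. Single libraries carried some of these calls: without library 2 Slc3a2 and Slc7a1 missed the threshold, and without library 3 Slc7a5 and Slc3a2 did. That left 4 of 9 each time, beside 27.5% of 12904 genes without library 2 and 42.3% of 12471 genes without library 3. Pairs of libraries differed by more than counting noise throughout the tables, and the median gene's chi-square was 6.45 times its null value. After division by that factor, 4.45% of all genes and 1 of the 9 passed. It was Slc1a5, at 416, 491 and 394 CPM (counts scaled to TMM library sizes, not divided by length), with an adjusted p of 6.82e-05. Division by 1 factor for all genes does not allow for a gene's depth, and Slc1a5 had 19601 counts in all. The call alone therefore does not place Slc1a5 outside the usual spread between libraries. Its SD was 11.8% of its mean CPM, against a median of 8.71% for genes with 500 or more counts in all. The common coefficient of variation (SD over mean) beyond counting noise was 15.1%. The library 2 value of Slc1a5 was the high one, 1.248 times the lowest, and the same library was high in TPM. Library 2 also stood apart over all genes. The mean chi-square per gene was 18.5 against library 1 and 20.1 against library 3, but 6.08 between libraries 1 and 3. Slc6a6 had an adjusted p of 0.105 after the division, at 65.5, 76.2 and 91.3 CPM.

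The SD of the 3 TPM values was small beside the mean for most of the genes. The coefficient of variation was 2.23% for Slc38a1, 2.70% for Slc3a2 and 4.10% for Slc38a2, and lay between 7.83% and 11.9% for Slc7a5, Slc7a6, Slc1a5, Slc6a6 and Slc7a1. For all 8138 genes with 500 or more counts in all the median was 9.07%. Slc43a2 had 23.2% in TPM but 8.83% in CPM. Its counts varied 1.19-fold between libraries and its TPM varied 1.60-fold, while the deposited effective length was 3239, 2264 and 2093 bases in libraries 1, 2 and 3. Slc6a6 went the other way: its TPM varied 1.22-fold and its CPM 1.39-fold, with effective lengths of 1842, 2178 and 2157 bases. Slc7a6 varied 1.21-fold in TPM and 1.08-fold in CPM, with effective lengths of 2625, 2602 and 2383 bases. TPM divides counts by effective length, so the 2 scales differ where that length changes between libraries. What set the lengths and the rest of the spread was not tested.

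**Figure D4:**
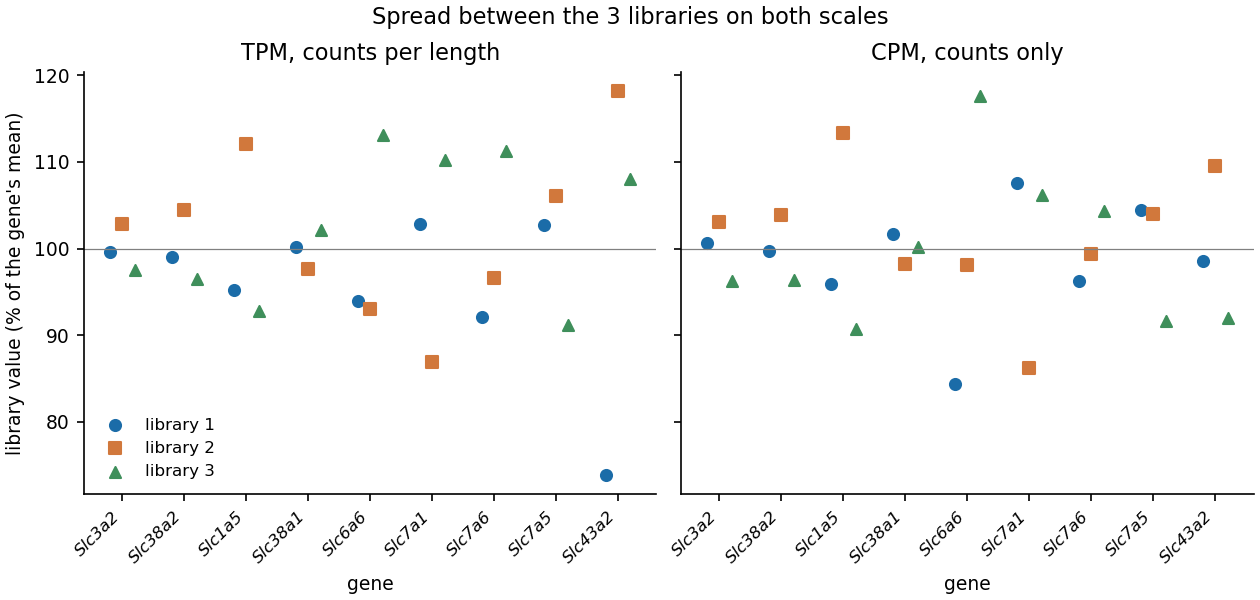
Value in each library as a percentage of the gene's mean over the 3 libraries, in TPM (left) and CPM (right), for 9 genes. Library 1 of Slc43a2 lies far below its mean in TPM and near it in CPM, while Slc6a6 spreads more in CPM.

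A second deposited table held whole-number counts for GENCODE M4 genes and listed all 10 transporters. It gave fewer counts for each. Its summed counts were 54.8% of the estimated counts for Slc7a1, 52.1% for Slc6a6, 49.02% for Slc7a6, 43.1% for Slc3a2, 42.5% for Slc43a2, 40.8% for Slc7a5 and 36.9% for Slc1a5. For Slc38a1 and Slc38a2, which lie next to each other, the share was lower, 20.1% and 16.8%. How that table was counted is not given in the sources used here, and the reason for the lower share was not tested.

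Set beside 43 other genes of amino acid transporters, the 10 genes held 88.8% ± 0.445 of the summed transporter TPM. Of the 10, 9 stood at 10 TPM or more and 4 at 100 TPM or more, against 3 and 0 of the 43 others and 34.2% and 7.82% of all 22028 protein-coding genes. The 10 were chosen with these levels known, so the counts describe them and test nothing. The highest of the others was Slc38a10, a relative of the SNAT genes, at 96.6 ± 6.21 TPM, between Slc38a1 and Slc6a6. Slc38a9, which encodes a lysosomal arginine sensor for mTORC1, averaged 18.2 ± 2.33 TPM, and Slc43a1, the paralogue of Slc43a2 that encodes LAT3, averaged 14.2 ± 1.58 TPM. The range of Slc43a1, 12.7 to 15.8 TPM, overlapped that of Slc43a2. Of the 43, 32 were under 1 TPM and 5 had 0 counts in all 3 libraries: Slc1a6, Slc6a14, Slc7a9, Slc7a15 and Slc38a5. For a gene with 0 counts in a library, an expected count of up to 3 there was taken as the limit of detection. That is 0.185 CPM in library 1, 0.206 CPM in library 2 and 0.207 CPM in library 3. This limit takes each library alone and is not a limit for the 3 libraries together.

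**Figure D5:**
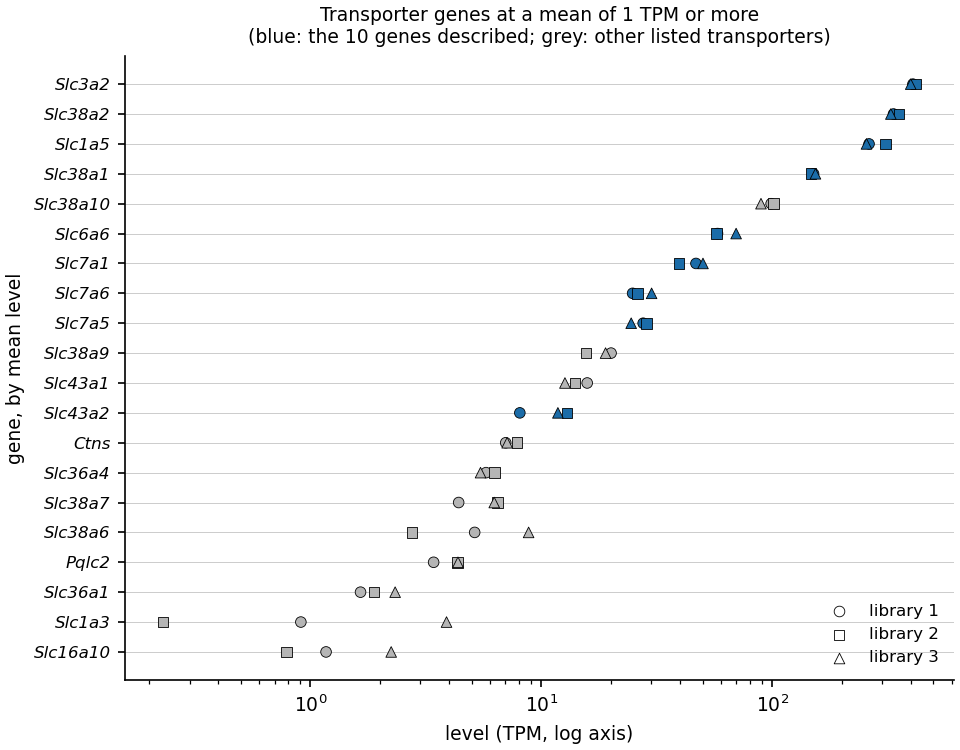
Level in TPM (log axis) in each library of every transporter gene with a mean of 1 TPM or more, with the 10 genes described in blue and others in grey. Slc38a10 is the single grey gene among the upper 9, and Slc7a7 is below the range shown.

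Genes that act on amino acids inside the cell were measured in the same libraries, from lists made with earlier results of these data known. Among 22 genes of the response to amino acid shortage, 15 stood at 10 TPM or more. Atf4, the transcription factor of that response, averaged 212 ± 27.5 TPM, Cebpb, a partner factor, 73.9 ± 8.34 TPM and Phgdh, the first enzyme of serine synthesis, 57.4 ± 2.99 TPM. Asns, asparagine synthetase, averaged 23.9 ± 0.375 TPM. These 22 genes had a median of 21.1 TPM, against 53.6 TPM for the 10 transporters and 0.700 TPM for all protein-coding genes.

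Of 36 genes of amino acid sensing by mTORC1, 27 stood at 10 TPM or more. Rheb, the GTPase that activates mTORC1, averaged 216 ± 4.63 TPM, Sec13, a member of the GATOR2 complex, 113 ± 15.9 TPM and Lamtor2, a Ragulator subunit, 113 ± 9.03 TPM. The kinase gene Mtor itself averaged 12.7 ± 2.09 TPM. All 20 cytosolic aminoacyl-tRNA synthetase genes stood at 10 TPM or more, led by Vars, the valine enzyme, at 171 ± 6.66 TPM, Eprs, the glutamate and proline enzyme, at 165 ± 16.1 TPM and Nars, the asparagine enzyme, at 125 ± 20.4 TPM. Of 17 genes of amino acid metabolism, 7 stood at 10 TPM or more. Got1, the cytosolic aspartate aminotransferase, averaged 332 ± 20.0 TPM and Glud1, glutamate dehydrogenase, 95.6 ± 8.27 TPM.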

How the data were processed

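PolyA RNA-seq was deposited for 3 libraries of 1 mouse. Per the file headers, the deposited gene and transcript tables (mm10, GENCODE M21 per the labels) hold estimated counts, TPM, posterior mean TPM and the posterior SD of each count. A second table deposited by the authors holds whole-number counts for 22457 GENCODE M4 genes. Not given in the sources used here: aligner, quantifier, library kit and strand setting. Gene counts summed to 16251564, 14878641 and 14152590, and the second table to 5110680, 4812984 and 4579836. Rows that name no mouse gene (tRNA, spike-ins, phiX174) took 0.188%, 0.579% and 0.240% of counts and stayed out of sizes and tests.

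Levels are the deposited TPM. Neighbours in an order were called separate where their 3 values did not overlap. Transcript shares are transcript TPM over the gene's summed transcript TPM. Estimated counts were rounded and tested for homogeneity over libraries by chi-square, with expected shares from edgeR TMM sizes, a minimum of 30 counts summed over libraries, and p adjusted by Benjamini-Hochberg over 13949 genes at 0.05. The test was also run with the chi-square divided by its median inflation. It concerns technical libraries, not mice. No library repeats another: the mean chi-square per gene was 18.5 between libraries 1 and 2, 6.08 between 1 and 3 and 20.1 between 2 and 3.

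The 10 genes and all lists were chosen with earlier results of these data known. Named are all 10 genes, the 3 highest genes of each list, Slc7a8, Slc7a11, Slc38a9, Atf4, Asns and Mtor, and the leading 3 transcripts per gene. Some listed genes are not reported here. Slc7a10, the genes with 0 counts, the exon-overlapping genes and the markers given were named outside that rule, after their values were seen. Sequences and positions are from GENCODE M21 on GRCm38/mm10. Alternatives were DESeq2 size factors, total counts, count filters, posterior mean TPM, undivided counts, the second table and leaving out each library, and, added after seeing the data, coding transcripts only, the longest coding length and transcript shares by count. Tools were edgeR 4.0.16 and DESeq2 1.42.0 in R 4.3.3, and pandas 2.3.3, scipy 1.17.1, matplotlib 3.10.9 and numpy 2.4.6 in Python 3.11.15.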

Additional observations from a re-analysis of the deposited data

How the results depend on the processing

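No paired analysis was possible because the 3 libraries form 1 group and no groups are compared. The test between libraries called 6 of the 9 genes, beside 57.2% of all genes tested (7973). It called 6 again with DESeq2 size factors (57.3%), with 100 counts as the minimum (61.9%) and among genes of low assignment uncertainty (58.2%). With 10 counts as the minimum Slc7a7 was tested too, and it called 6 of 10 (49.3%). With total counts as sizes it called 4 (54.5%), with Slc38a1 among them and without Slc7a5, Slc3a2 and Slc38a2. It called 1, Slc1a5, after division by the inflation (4.45%, 621 of 13949 genes) and 2, Slc1a5 and Slc6a6, on the second table (27.2%, 2804 of 10291). With a library left out it called 4 to 6: 6 without library 1 (43.8%, 5516 of 12591), 4 without library 2 (27.5%, 3546 of 12904; Slc3a2 and Slc7a1 lost the call) and 4 without library 3 (42.3%, 5277 of 12471; Slc7a5 and Slc3a2 lost it). Slc1a5 and Slc6a6 were called in each of these but the inflation-divided one, which left out Slc6a6.

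The ratio of Slc3a2 to the light chains was 7.38, and became 6.66 with posterior mean TPM, 3.88 with undivided counts, 3.76 on the second table, 8.51 with coding transcripts only and 5.01 per length of the longest coding transcript, with 7.27 to 7.57 when a library was left out. It stayed above 1 under each of these settings. The Slc38a2 to Slc38a1 ratio of 2.25 became 2.70 with undivided counts, 3.13 with coding transcripts only and 4.23 per longest coding length, with 2.17 to 2.31 when a library was left out. The share of transporter TPM in the 10 genes was 87.2% with posterior mean TPM and 88.6% to 89.0% with a library left out. Between 7 and 9 of the 9 neighbour pairs were separate under the settings tried. Slc38a2 and Slc1a5 stood above Slc3a2, Slc7a5 above Slc6a6 and Slc7a6 above Slc7a1 per longest coding length, Slc1a5 above Slc38a2 and Slc6a6 above Slc38a1 on the second table, and Slc7a5 above Slc7a6 without library 3. With coding transcripts only, Slc38a1 stood above Slc1a5, and Slc7a1 and Slc7a5 above Slc6a6. Slc7a5 also stood above Slc7a6 with coding transcripts only and per longest coding length. The leading form was not annotated as coding in 2 genes under each setting, Slc1a5 and Slc6a6, or by counts Slc1a5 and Slc38a1. Posterior mean TPM moved 7 of the 10 levels by more than 1 SD and coding transcripts only moved 8. Leaving out a library moved 0, but dropping 1 of 3 values cannot move their mean by more than 1 SD. That count was thus fixed in advance and shows nothing about the levels. The causes of these differences were not tested. Depth limits Slc7a7, with 12 counts, and the shares of low transcripts.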
